A study of Mus musculus with 15 samples.

Results

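The genes described here make cholesterol or keep its amount in the cell in balance, and they were followed in the auditory nerve of mice before and after loud noise. They were taken from a list of 34 symbols of sterol synthesis, sensing, uptake, transport and efflux, which name 33 genes because 1 of them (Sc4mol) is the old symbol of Msmo1. A probe set that the array's annotation pairs with a single gene was found for 30 of the 33, and each gene was represented by the probe set of highest mean intensity over the 15 arrays. All 30 passed the filter on dim genes and were tested, among 13644 genes tested of 18193 measured. The other 3, Acat2, Soat1 and Nr1h2, are not analysed here. By step of the pathway, 6 of the tested genes act from HMG-CoA to farnesyl pyrophosphate (mevalonate steps), 3 from there to lanosterol (squalene steps) and 8 after lanosterol. A further 5 sense or transmit the sterol level, 4 act in uptake and transport inside the cell, and 4 belong to the liver X receptor (LXR) and efflux.

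Expression was measured on 15 arrays (Affymetrix GeneChip), 3 in each of 5 groups of CBA/CaJ mice aged 5 to 12 weeks. Control mice heard no noise, and the other 4 groups heard 106 dB SPL of octave-band noise between 8 and 16 kHz for 2 h and were taken immediately afterwards or 1, 7 or 14 days later. Each array held RNA of a single animal, with both ears joined, from the modiolus, the core of the cochlea that holds the nerve, freed of the outer bone, the lateral wall and the greater part of the sensory epithelium. Sex differed between the groups: the 3 controls were female and the 3 mice at 1 day were male, whereas the other groups held 2 females and 1 male (immediate, 7 days and 14 days). Values are log2 intensities as deposited, differences are log2 fold changes with their standard error (SE), every group has n = 3, and a gene is said to have risen or fallen where the p-value adjusted over all 13644 genes lay under 0.05.

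Cholesterol is a major lipid of myelin, the membrane that Schwann cells wrap around the axons of a peripheral nerve, and nerve cells and glia make most of theirs locally. Its synthesis starts from acetyl-CoA, passes through mevalonate, isopentenyl and farnesyl pyrophosphate to squalene and lanosterol, and ends with a series of reductions and demethylations. When membrane sterol is low, the escort protein SCAP carries the SREBP factors (genes Srebf1 and Srebf2) from the endoplasmic reticulum to the Golgi, where proteolysis releases them to bind sterol regulatory elements, usually beside a CCAAT box bound by NF-Y. INSIG proteins hold SCAP back when sterol is plentiful, while the LXR receptors, bound by oxysterols, raise efflux genes such as Abca1, Abcg1 and Apoe.

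The promoters of synthesis genes that rose immediately after noise are shown because these genes moved together. RefSeq windows of assembly GRCm38.p6 were found for 23 of the 30 measured genes, and 250 bases before the annotated start were read 5′ to 3′ on the strand of the gene. The sterol regulatory element core TCACNCCAC and the CCAAT box were searched on both strands, and capitals mark every match, with a CCAAT box on the other strand reading ATTGG. The window of Hmgcs1 (chr13:119690101-119690350, plus strand) is printed because it held the core, 137 to 129 bases before the start. Those of Idi1 (chr13:8885356-8885605, plus strand), Msmo1 (chr8:64733579-64733828, minus strand) and Cyp51 (chr5:4104698-4104947, minus strand) are printed because these genes rose beside it. Sqle, which also rose, had no window and is not printed.
Hmgcs1: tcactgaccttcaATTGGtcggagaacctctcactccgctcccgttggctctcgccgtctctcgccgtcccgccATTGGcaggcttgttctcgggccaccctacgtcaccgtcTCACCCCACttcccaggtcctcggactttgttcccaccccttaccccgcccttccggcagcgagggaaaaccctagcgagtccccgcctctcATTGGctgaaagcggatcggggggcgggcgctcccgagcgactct
Idi1: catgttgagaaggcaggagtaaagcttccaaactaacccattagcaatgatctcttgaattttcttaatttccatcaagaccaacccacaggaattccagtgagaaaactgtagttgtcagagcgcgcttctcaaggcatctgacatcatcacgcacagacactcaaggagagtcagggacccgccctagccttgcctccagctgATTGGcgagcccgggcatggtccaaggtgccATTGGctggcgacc
Msmo1: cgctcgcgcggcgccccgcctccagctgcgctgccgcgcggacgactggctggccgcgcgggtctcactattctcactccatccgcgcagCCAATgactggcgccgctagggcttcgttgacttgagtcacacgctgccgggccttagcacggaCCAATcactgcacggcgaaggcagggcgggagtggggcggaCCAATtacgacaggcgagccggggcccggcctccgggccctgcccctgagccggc
Cyp51: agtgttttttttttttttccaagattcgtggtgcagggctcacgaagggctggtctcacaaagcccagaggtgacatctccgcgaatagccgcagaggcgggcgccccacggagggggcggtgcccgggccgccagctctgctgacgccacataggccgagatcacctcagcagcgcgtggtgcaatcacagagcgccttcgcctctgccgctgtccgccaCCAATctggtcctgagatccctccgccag
Matches were counted by gene, in any window of the gene. The core stood in 1 of the 23 genes (4.35%), Hmgcs1, and in 331 of all 27025 genes with a window (1.22%). At least 1 CCAAT box stood in 19 of the 23 (82.6%), including 14 of 14 synthesis genes with a window. Of all 27025 genes, 10133 held at least 1 (37.5%). At least 2 stood in 9 of the 14 synthesis genes (64.3%) and in 3110 of all 27025 genes. The matches of the 2 motifs shared no base in the printed windows. In Hmgcs1 the CCAAT boxes lay 237 to 233, 176 to 172 and 45 to 41 bases before the start, and in Idi1 45 to 41 and 14 to 10. A match describes the letters of the window and is not a site of binding.

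As a measure of RNA quality, beta-actin read higher at its 3' than at its 5' control set by 0.48 to 0.54 in the group means. The labelled sex of all 15 arrays was matched by Xist and the Y-linked Eif2s3y. In the controls the mean level of 12 measured Schwann cell and myelin markers was 10.93 to 11.02 and that of 12 neuron markers 10.24 to 10.25, while 6 bone markers ranged from 8.10 to 9.50. Of 6 measured adipocyte markers only 2 passed the filter on dim genes. In tissue of mixed cells, fewer cells of a type and less RNA per cell cannot be told apart.

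Over the time course, of the 30 sterol genes, 10 differed among the 5 groups by the moderated F test (6.75% of all genes tested did), and 9 of these 10 were synthesis genes, out of 17. The 9 were Hmgcs1, Mvd, Idi1, Fdps, Fdft1, Sqle, Cyp51, Msmo1 and Sc5d, and the tenth was Stard4, which moves cholesterol between membranes inside the cell. With sex as a term in the fit 6 passed (3.19% of all genes): Hmgcs1, Idi1, Fdft1, Sqle, Msmo1 and Stard4. Idi1 had the widest range of the 30 over the 15 arrays, 0.97 log2 units, and Nsdhl the narrowest, 0.18.

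**Figure D1:**
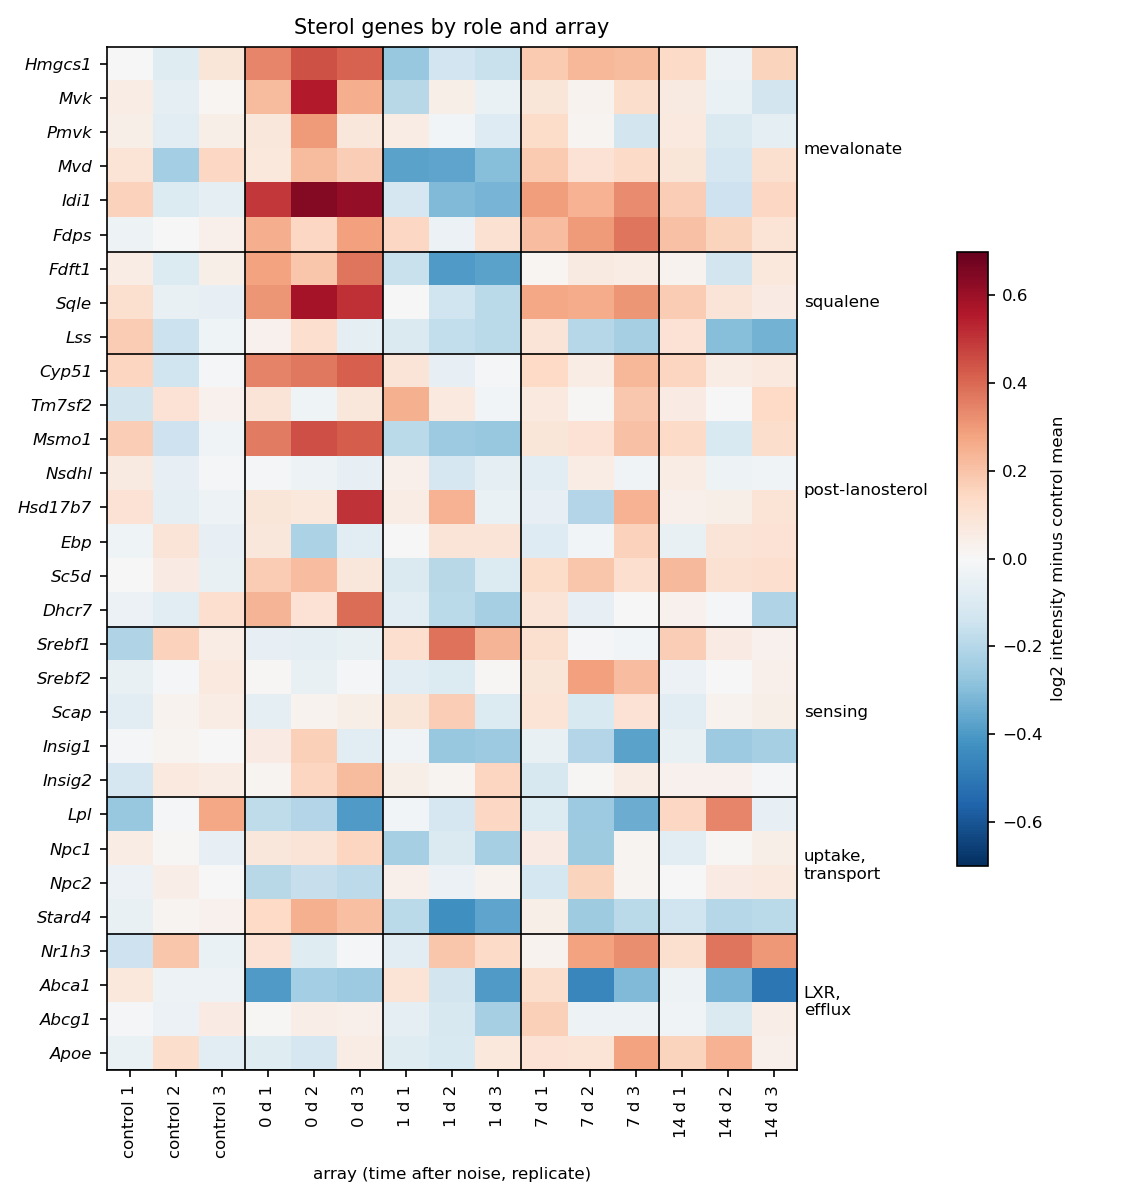
Heat map of the 30 sterol genes (vertical, ordered by step of the pathway) over the 15 arrays (horizontal, by time after noise and replicate); colour gives the log2 intensity minus the mean of the 3 controls. Red prevails in the mevalonate and squalene blocks in the arrays taken immediately after noise (0 d), with Lss near white, blue prevails there in those of 1 day, and the blocks of sensing and efflux genes hold both colours at both times.

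Immediately after noise, several genes of cholesterol synthesis stood higher than in controls, and none of the sensing, transport or efflux genes was called. Of the 30 sterol genes 5 rose, and all 5 belong to synthesis: Hmgcs1, Idi1, Sqle, Msmo1 and Cyp51. None fell. Among all genes tested, 0.579% rose and 0.352% fell in the same comparison. The rises were of 1.3- to 1.5-fold.

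Hmgcs1, the cytosolic HMG-CoA synthase that begins the mevalonate branch, stood at 11.36, 11.27 and 11.44 in the controls and at 11.70, 11.80 and 11.77 in the noise arrays. The 2 groups did not overlap, and Hmgcs1 rose by 0.40 ± 0.06 (SE, adjusted p = 0.00481). Idi1, the isomerase that makes the reactive isoprenoid unit, stood at 9.04, 8.78 and 8.81 in controls and at 9.37, 9.52 and 9.49 after noise. Its rise of 0.58 ± 0.09 (adjusted p = 0.00823), or 1.5-fold, was the largest of the 30 sterol genes. Of the other mevalonate enzymes none passed the test. Mvk, mevalonate kinase, stood at 7.12, 7.00 and 7.08 in controls against 7.29, 7.62 and 7.32, a difference of 0.34 ± 0.10 (adjusted p = 0.102). Fdps, which makes farnesyl pyrophosphate, stood at 8.98, 9.01 and 9.05 against 9.27, 9.16 and 9.30. In both genes every noise array lay above every control, although neither passed. Mvd, mevalonate pyrophosphate decarboxylase, overlapped between the groups, with 6.24, 5.91 and 6.29 in controls and 6.22, 6.37 and 6.32 after noise.

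At the squalene steps, Sqle, the squalene epoxidase that is a control point of the pathway, stood at 8.62, 8.46 and 8.45 in controls and at 8.82, 9.09 and 9.02 after noise. It rose by 0.47 ± 0.08 (adjusted p = 0.00991). Fdft1, squalene synthase, stood at 9.44, 9.29 and 9.43 against 9.67, 9.58 and 9.76, with no overlap, and its difference of 0.28 ± 0.08 did not pass (adjusted p = 0.0919). Lss, which closes squalene epoxide into lanosterol, differed by 0.03 ± 0.12.

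After lanosterol, 2 of 8 genes rose. Msmo1, the methylsterol oxidase, went from 10.08, 9.76 and 9.88 to 10.27, 10.36 and 10.33 and rose by 0.41 ± 0.08 (adjusted p = 0.0234). Cyp51, lanosterol demethylase, went from 7.88, 7.59 and 7.72 to 8.08, 8.10 and 8.15, a rise of 0.38 ± 0.08 (adjusted p = 0.0343). In both genes the lowest noise array lay above the highest control. Sc5d, a desaturase near the end of the pathway, stood at 8.99, 9.05 and 8.94 in controls and at 9.17, 9.21 and 9.07 after noise. Dhcr7, which carries out the last reduction, stood at 7.17, 7.13 and 7.33 against 7.45, 7.31 and 7.60. Neither of these passed (adjusted p = 0.210 and 0.224). None of the other 4 genes after lanosterol passed: the difference was 0.22 ± 0.12 for Hsd17b7, 0.05 ± 0.09 for Tm7sf2, -0.03 ± 0.06 for Nsdhl and -0.07 ± 0.08 for Ebp.

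In the probe sets used, the regulators of the pathway differed little at this time. Srebf2, the SREBP factor of the sterol genes, stood at 7.24, 7.28 and 7.36 in controls and at 7.30, 7.24 and 7.28 after noise (difference -0.02, 95% interval -0.17 to 0.13). A second probe set of Srebf2 gave 0.41 ± 0.13, which did not pass in a fit over probe sets (adjusted p = 0.164). Its probe sets thus differ in sign and size. Srebf1, whose products act mainly on fatty acid genes, stood at 9.94, 10.31 and 10.20 in controls and within 10.08 to 10.10 after noise. Insig1, itself a gene switched on by SREBP, stood at 9.11, 9.14 and 9.12 against 9.18, 9.29 and 9.05, a difference of 0.05 (95% interval -0.14 to 0.24). None of the 5 sensing genes passed, with a median of 0.00.

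In transport, Stard4 stood at 7.79, 7.86 and 7.87 in controls and at 7.98, 8.09 and 8.05 after noise, and Npc1, which exports cholesterol from lysosomes, at 8.43, 8.39 and 8.32 against 8.46, 8.47 and 8.53. Neither passed, although the groups overlapped in neither gene. The efflux transporter Abca1 lay lower in every noise array (9.83, 9.99 and 9.97) than in the controls (10.30, 10.19 and 10.19), and its difference of -0.30 ± 0.15 did not pass (adjusted p = 0.347). Apoe, the lipoprotein that carries lipid between cells of the nervous system, overlapped, at 12.80, 12.97 and 12.77 in controls and 12.76, 12.73 and 12.90 after noise.

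By role, the median difference was 0.29 for the mevalonate steps, 0.28 for the squalene steps and 0.19 after lanosterol. It was -0.04 for uptake and transport and -0.02 for LXR and efflux, beside -0.02 over all genes tested. All 3 noise arrays lay above all 3 controls in 12 of the 30 genes, 10 of them in synthesis, and below them in 2 (Npc2 and Abca1). Over all genes tested these shares were 8.86% and 12.3%. With sex as a term 4 of the 5 rose (0.381% of all genes tested), and Cyp51 did not (adjusted p = 0.0631). The call of Hmgcs1 did not depend on any single array. Without control replicate 2, or without immediate replicate 3, Hmgcs1 alone was called, so the count was 1, and without control replicate 3, immediate replicate 1 or immediate replicate 2 it was 3. The 5 differences themselves stayed between 0.31 and 0.67 with any array left out. Schwann cell and myelin markers averaged 11.01 to 11.09 in the noise arrays, and 0 of 12 were called. Oligodendrocyte markers had a median difference of 0.25 with 0 of 10 called, and macrophage markers one of -0.10 with 0 of 15 called. The part of cell composition in these rises was not tested.

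**Figure D2:**
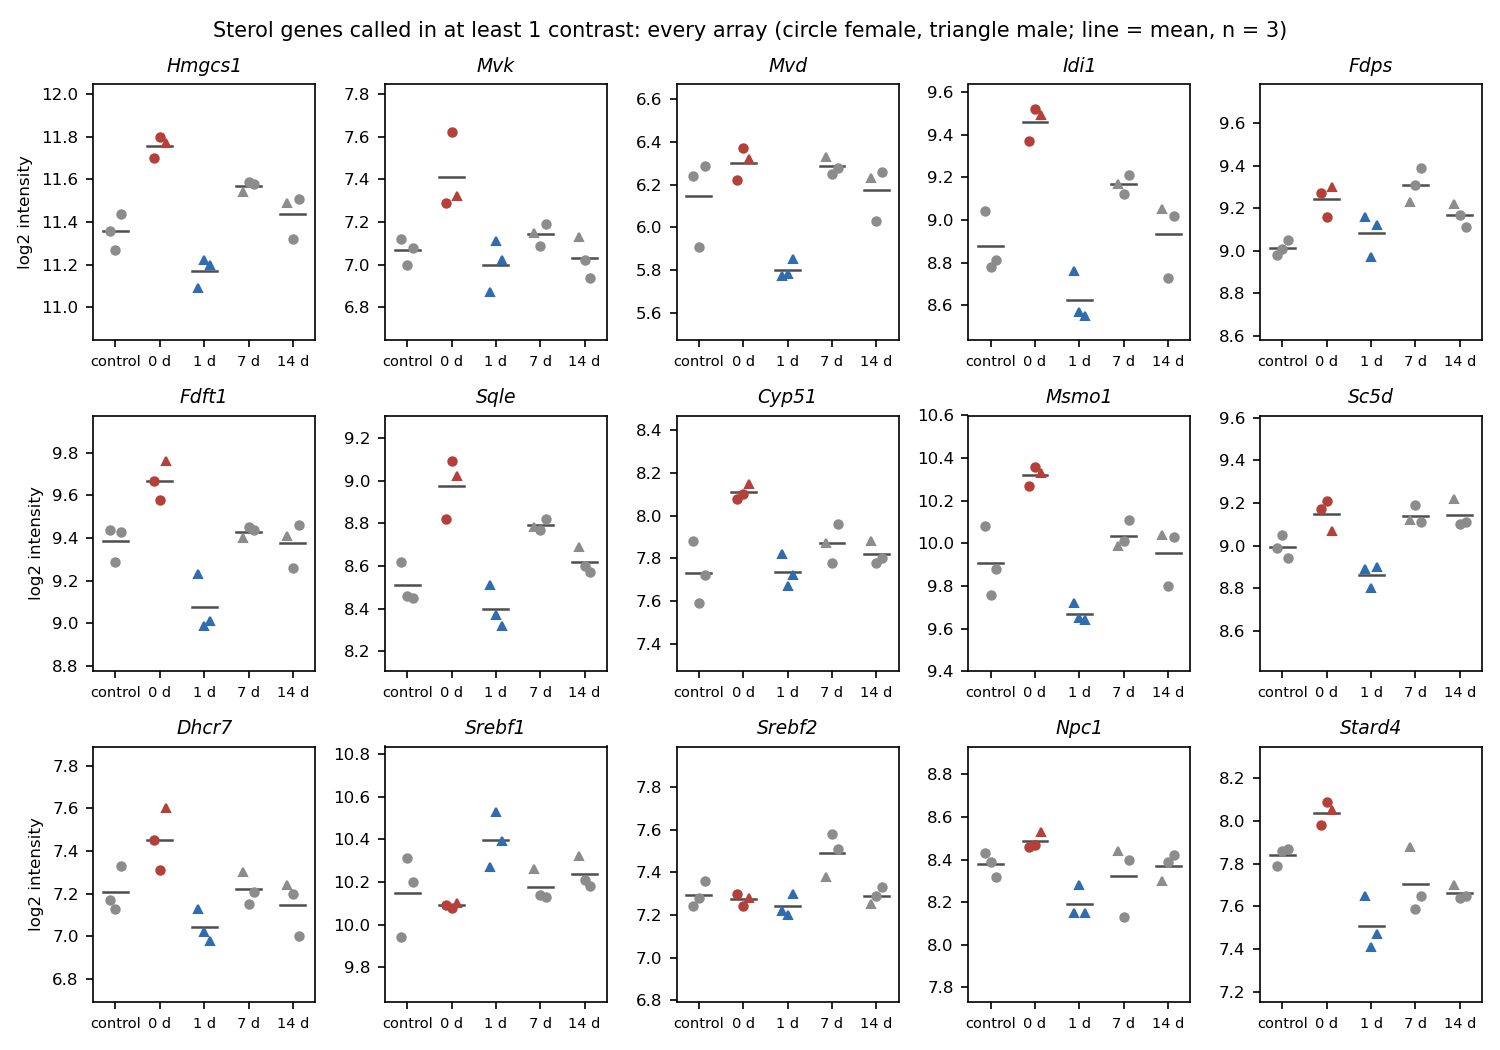
Log2 intensity (vertical; every panel spans the same width) of the 15 sterol genes called in at least 1 comparison, in every array, against group (horizontal: control, then 0, 1, 7 and 14 days after noise); circles are females, triangles males, lines the means of n = 3, with the immediate arrays in red, those of 1 day in blue and the rest in grey. In Hmgcs1, Mvk, Idi1, Fdft1, Cyp51, Msmo1, Npc1 and Stard4 the 3 red points lie above all others of the panel. In Srebf1 the 3 red points lie below the 3 blue ones.

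By 1 day after noise, 10 of the 17 synthesis genes had fallen from their level immediately after it. Between these times 12 of the 30 sterol genes fell and 1 rose, where 4.38% of all genes tested fell and 4.02% rose. None of the synthesis genes rose, and differences of Tm7sf2 (0.05 ± 0.09), Ebp (0.13 ± 0.08) and Nsdhl (-0.02 ± 0.06) did not pass. The 12 were Hmgcs1, Mvk, Mvd, Idi1, Fdft1, Sqle, Cyp51, Msmo1, Sc5d, Dhcr7, Npc1 and Stard4, and they include the 5 that had risen over control, a comparison that shares the immediate arrays with this one. The median difference was -0.46 for the mevalonate steps, -0.58 for the squalene steps and -0.21 after lanosterol, against 0.01 over all genes. All arrays of 1 day lay under all of the immediate group in 15 of the 30 genes and above them in 3 (Srebf1, Lpl and Npc2), beside 14% and 15.4% of all genes.

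At 1 day Idi1 stood at 8.76, 8.57 and 8.55, and it fell from the immediate arrays by 0.83 on the log2 scale (SE 0.09, adjusted p = 0.000302). Hmgcs1 stood at 11.09, 11.22 and 11.20 and fell by 0.59 (SE 0.06, adjusted p = 0.000153). All 3 arrays of each gene lay under every array of the immediate group and under every control. The place of Hmgcs1 under control rests on the set used, which differed from control by -0.19 at 1 day. Its 3 other bright sets differed by -0.09, -0.04 and -0.01. Mvk stood at 6.87, 7.11 and 7.02 and fell by 0.41, and Mvd at 5.77, 5.78 and 5.85 and fell by 0.50. The intensity of Mvd lies in the range in which Xist reads in males, whose highest value was 6.48, so the size of its change is uncertain. Fdps stood at 9.16, 8.97 and 9.12 and did not pass. A dimmer probe set of Mvk differed by -0.08 ± 0.09, so the fall of Mvk rests on the brighter of its 2 sets.

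Fdft1 stood at 9.23, 8.99 and 9.01 and fell by 0.59 (adjusted p = 0.000572). Sqle stood at 8.51, 8.37 and 8.32 and fell by 0.58 (adjusted p = 0.000794). For both, the immediate arrays lay wholly above those of 1 day. Msmo1 stood at 9.72, 9.65 and 9.64 and fell by 0.65 (adjusted p = 0.000497), the second largest fall after Idi1. Cyp51 stood at 7.82, 7.67 and 7.72, Sc5d at 8.89, 8.80 and 8.90, and Dhcr7 at 7.13, 7.02 and 6.98. They fell by 0.37, 0.29 and 0.41 in turn, with adjusted p = 0.0120, 0.00969 and 0.0167.

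Outside synthesis, Stard4 stood at 7.65, 7.41 and 7.47 and fell by 0.53 (adjusted p = 0.00237), and Npc1 stood at 8.15, 8.28 and 8.15 and fell by 0.29 (adjusted p = 0.0328). Both lie on the path by which cholesterol moves between membranes. Srebf1 moved the other way: it stood at 10.27, 10.53 and 10.39 and rose by 0.31 ± 0.08 (adjusted p = 0.0375). Srebf2, at 7.22, 7.20 and 7.30, differed by -0.03 (95% interval -0.18 to 0.12). Insig1, at 9.10, 8.86 and 8.87, differed by -0.23 ± 0.09 and did not pass (adjusted p = 0.130). The LXR target Abca1 (10.32, 10.10 and 9.83) and Apoe (12.76, 12.74 and 12.92) did not pass either, and 0 of 4 LXR and efflux genes were called.

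Against control, 2 sterol genes fell at 1 day and none rose, where 1.66% of all genes tested fell and 1.52% rose. Fdft1 fell by 0.31 (SE 0.08, adjusted p = 0.0387) and Stard4 by 0.33 (SE 0.08, adjusted p = 0.0436). In 10 of the 30 genes the 3 arrays of 1 day lay under all controls, and in none above, where 12.5% of all genes tested lay under and 10.1% above. The 10 were Hmgcs1, Mvd, Idi1, Fdft1, Msmo1, Sc5d, Insig1, Npc1, Stard4 and Abcg1. The mean of all probe sets gave -0.15 for Fdft1, whose 2 dimmest sets stayed near background, and it was then not called, while Mvd was (-0.41, adjusted p = 0.0264). In a fit over single probe sets neither Fdft1 (adjusted p = 0.0538) nor Stard4 (0.0611) passed. In that fit a second probe set of Sc5d fell by 0.37 (SE 0.07, adjusted p = 0.0150), where the set used for Sc5d differed by -0.13 ± 0.06.

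Because the controls were all female and the mice at 1 day all male, sex and time are tied in the comparison with control. With sex as a term the adjusted p of Fdft1 was 0.121 and that of Stard4 0.0724, so 0 sterol genes were called (0.279% of all genes tested rose and 0.271% fell in that fit). Against the immediate group the same term left 10 falls, all among the 12 (2.92% of all genes fell and 1.86% rose in that fit), while Mvk (adjusted p = 0.0530), Npc1 (0.0589) and Srebf1 (0.145) no longer passed. The lysosomal protein gene Npc2 then rose by 0.25 (adjusted p = 0.0368). The sex coefficient itself was called for 0 of the 30 sterol genes, with a median of 0.04 (male minus female), and for 6 of all 13644 genes tested. With so few calls over all genes, a count of 0 among 30 does not show that sex had no effect on them. The coefficient was largest for Abca1, at 0.32. Against control the count was 0 without control replicate 1, control replicate 3, immediate replicate 1, 1-day replicate 2 or 1-day replicate 3. It was 1 without immediate replicate 2, immediate replicate 3 or any of the 14-day arrays, and without control replicate 2 the 2 genes called were Fdft1 and Mvd. The 13 calls against the immediate group became 9 to 14 with an array left out.

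Markers of other cells moved at the same time. Macrophage markers averaged 6.84 to 7.16 in controls, 6.86 to 7.10 immediately and 7.68 to 7.84 at 1 day, and 9 of 15 rose between the last of these. Against control 7 of the 15 rose at 1 day. When sex was a term Cd68, Aif1 and Ly86 still passed against control. C1qa, C1qb, C1qc and Fcgr3 did not (adjusted p = 0.0637 to 0.149). Of the rises from the immediate group, those of Csf1r (0.115) and Fcgr3 (0.0794) did not pass in that fit. Schwann cell and myelin markers averaged 10.75 to 10.90 at 1 day, and 4 of 12 fell from the immediate group (Cnp, Fa2h, Pllp and Ugt8a), with a list median of -0.19. Against control 4 of the 12 fell (Cnp, Fa2h, Ncmap and S100b), with a median of -0.17. Only Cnp of these 4 passed with sex as a term (adjusted p = 0.0456). Fa2h (0.123), Ncmap (0.0996) and S100b (0.213) did not, nor did Pllp against the immediate group (0.112). Bone markers averaged 7.45 to 7.82 at 1 day: Dmp1 fell from the immediate group by 0.86, and against control Ibsp fell by 1.72 and Dmp1 by 0.81, of 6 measured. Neither fall against control passed with sex as a term (adjusted p = 0.148 for Ibsp and 0.0822 for Dmp1). Neuron markers had 5 of 12 that fell from the immediate group and 2 that rose, with a median of -0.15. Among these, Nefm (adjusted p = 0.0553), Calb2 (0.0900) and Uchl1 (0.0934) did not pass with sex as a term. The part of all these cells in the falls of the sterol genes was not tested.

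**Figure D3:**
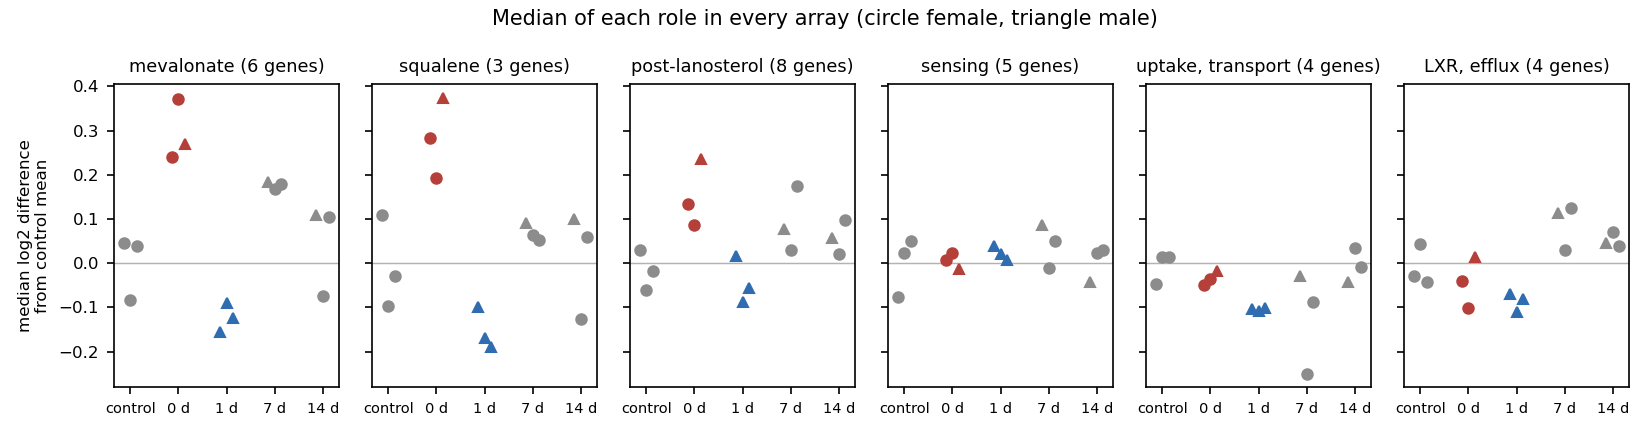
Median log2 difference from the control mean (vertical) over the genes of each role, 1 point per array, against group (horizontal: control, then 0, 1, 7 and 14 days); circles are females and triangles males, with the immediate arrays in red and those of 1 day in blue. The mevalonate medians lie at 0.24 to 0.37 immediately, -0.16 to -0.09 at 1 day and 0.17 to 0.18 at 7 days, while those of the sensing genes stay within -0.08 and 0.09 in every array.

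By 7 days after noise, 8 of the 17 synthesis genes had risen from their level at 1 day. Of the 30 sterol genes 9 rose and 0 fell, where 5.13% of all genes tested rose and 4.22% fell. The synthesis genes were Hmgcs1, Mvd, Idi1, Fdps, Fdft1, Sqle, Msmo1 and Sc5d, and the ninth gene was Srebf2. Hsd17b7, Ebp and Tm7sf2 lay lower than at 1 day, by -0.09 to -0.01, and did not pass. Of the 12 that had fallen by 1 day, 7 were among these 9, in comparisons that share the arrays of 1 day.

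Hmgcs1 stood at 11.54, 11.59 and 11.58 at 7 days, rising by 0.40 ± 0.06 (adjusted p = 0.00165), and Idi1 at 9.17, 9.12 and 9.21, rising by 0.54 ± 0.09 (adjusted p = 0.00355). Mvd stood at 6.33, 6.25 and 6.28 and rose by 0.49, and Fdps at 9.23, 9.31 and 9.39 and rose by 0.23. In these 4 genes of the mevalonate steps all arrays of 7 days lay above all of 1 day. Mvk, at 7.15, 7.09 and 7.19, did not pass. The second probe set of Idi1 differed by 0.03 ± 0.17, and the mean over its sets was not called (0.29, adjusted p = 0.191).

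Sqle stood at 8.78, 8.77 and 8.82 and rose by 0.39 (adjusted p = 0.00807). Fdft1 stood at 9.40, 9.45 and 9.44 and rose by 0.35 (adjusted p = 0.0112). Lss, between them and the sterol nucleus, differed by 0.04 ± 0.12, so the squalene steps did not move as a block. Msmo1 stood at 9.99, 10.01 and 10.11 and rose by 0.37 (adjusted p = 0.0115), and Sc5d at 9.12, 9.19 and 9.11 and rose by 0.28 (adjusted p = 0.0106). Cyp51 (7.87, 7.78 and 7.96) and Dhcr7 (7.30, 7.15 and 7.21) lay higher than at 1 day on average, and neither passed.

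Srebf2 stood at 7.38, 7.58 and 7.51 and rose by 0.25 ± 0.07 (adjusted p = 0.0373). In the set used, all 3 of its 7-day arrays lay above every array of the other groups. In a fit over probe sets neither this set (adjusted p = 0.0569) nor the second one (0.30 ± 0.13, adjusted p = 0.202) passed. The second set differed from control by 0.41 ± 0.13 both immediately after noise and at 7 days. Srebf1, at 10.26, 10.14 and 10.13, lay lower in every array than at 1 day, and its difference of -0.22 ± 0.08 did not pass (adjusted p = 0.114). Insig1 stood at 9.07, 8.92 and 8.75 and Stard4 at 7.88, 7.59 and 7.65. Npc1 stood at 8.44, 8.13 and 8.40, so that both transport genes overlapped with 1 day. Apoe, at 12.95, 12.94 and 13.13, lay above all arrays of 1 day without passing (0.20 ± 0.07, adjusted p = 0.104), and Abca1 ranged from 9.77 to 10.35.

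With sex as a term 6 of the 9 rose (1.99% of all genes tested rose in that fit). Fdps (adjusted p = 0.10), Sc5d (0.0512) and Srebf2 (0.177) did not. Leaving out 1-day replicate 2 left 4 calls, and leaving out any other array left 7 to 9. Hmgcs1, Mvd, Idi1 and Sqle were called with every array left out. The mean over probe sets gave 5 rises, all among the 9, and a fall of Insig2 (-0.20, adjusted p = 0.0480). Over the same interval 9 of 15 macrophage markers fell and 4 of 12 Schwann cell and myelin markers rose (Cnp, Fa2h, Pllp and Ugt8a), with a list median of 0.25, and their part in these rises was not tested. When sex was a term C1qa, Tyrobp, Fcgr3 and Lyz2 did not pass (adjusted p = 0.0559 to 0.164). Pllp (0.0641) and Ugt8a (0.0512) did not pass either.

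Against control, 0 sterol genes were called at 7 days, when limma called 0.00733% of all genes as higher and 0.0147% as lower, and 8 of the 30 (26.7%) had an unadjusted p under 0.05, beside 11.2% of all genes. The difference lay above 0 in 21 of the 30 (70%), beside 53.5% of all genes. Fdps lay highest against control, at 0.30 ± 0.06 (adjusted p = 0.163), followed by Idi1 (0.29 ± 0.09) and Sqle (0.28 ± 0.08). In Hmgcs1, Idi1, Fdps, Sqle, Sc5d and Srebf2 all 3 arrays lay above all controls, and in Insig1 below, beside 8.19% and 4.57% of all genes. The intervals of the first 3 exclude 0 without adjustment: 0.16 to 0.43 for Fdps, 0.09 to 0.49 for Idi1 and 0.12 to 0.44 for Sqle.

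At 14 days no sterol gene was called against control, where 0% of all genes tested were called in either direction, and 4 of the 30 (13.3%) had an unadjusted p under 0.05, beside 7.85% of all genes. Hmgcs1 stood at 11.49, 11.32 and 11.51, Idi1 at 9.05, 8.73 and 9.02, and Sqle at 8.69, 8.60 and 8.57. Each of them overlapped with the controls. Fdft1 stood at 9.41, 9.26 and 9.46, Msmo1 at 10.04, 9.80 and 10.03 and Cyp51 at 7.88, 7.78 and 7.80, again within or across the range of the controls. The remaining enzymes called at some time behaved alike: Mvk stood at 7.13, 7.02 and 6.94, Mvd at 6.23, 6.03 and 6.26 and Dhcr7 at 7.24, 7.20 and 7.00. Fdps (9.22, 9.17 and 9.11) and Sc5d (9.22, 9.10 and 9.11) lay above all controls without passing. Stard4 (7.70, 7.64 and 7.65) and Insig1 (9.07, 8.87 and 8.89) lay under all controls without passing. Of the 30 genes 2 thus lay above and 2 under all controls, beside 8.77% and 5.45% of all genes.

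Genes that sense, move or export sterol were not called at 14 days either. Srebf1 stood at 10.32, 10.21 and 10.18, Srebf2 at 7.25, 7.29 and 7.33 and Npc1 at 8.30, 8.39 and 8.42 at 14 days. Abca1 stood at 10.19, 9.90 and 9.72 and differed from control by -0.29 (95% interval -0.60 to 0.02), and Apoe, at 13.00, 13.09 and 12.88, by 0.14 (95% interval -0.02 to 0.30). The difference of the LXR gene Nr1h3 was 0.26 (95% interval 0.01 to 0.51, adjusted p = 0.617). These intervals allow shifts of the size called at earlier times, so the test does not show that levels were the same as in controls. Between 7 and 14 days 0 sterol genes and 0% of all genes were called, and 6 of the 30 (20%) had an unadjusted p under 0.05, beside 2.1% of all genes. Their largest difference was that of Lpl, the lipase that frees fatty acids from lipoproteins, at 0.38 ± 0.13. Srebf2 differed by -0.20 ± 0.07 between these times. In 5 genes (Hmgcs1, Idi1, Fdps, Sqle and Srebf2) all arrays of 14 days lay under all of 7 days, and in Lpl above, beside 1.72% and 2.76% of all genes.

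Genes with a larger difference from control immediately after noise tended to have a larger one between 1 and 7 days. The 2 comparisons share no array, although both read the same probe sets. Over the 30 genes the differences had Pearson's r = 0.71 and Spearman's rho = 0.66, and 21 had the same sign. Over all 13644 genes tested r was -0.08 and rho -0.01, with 48.2% of the same sign. Within the 17 synthesis genes r was 0.70 and 14 had the same sign. The male share of the arrays also differed within each comparison, up in the first and down in the second, and its part in these values was not tested. Genes are not independent replicates, and these values describe the arrays. The fall from immediately to 1 day, set against the difference from 7 to 14 days, gave r = 0.60 over the 30 genes and r = 0.17 over all genes, again with no shared array. The difference of 1 day from control, set against that from 7 to 14 days, gave a lower r of 0.38 over the 30 genes. Over all genes it was 0.19, and these 2 comparisons share no array either.

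**Figure D4:**
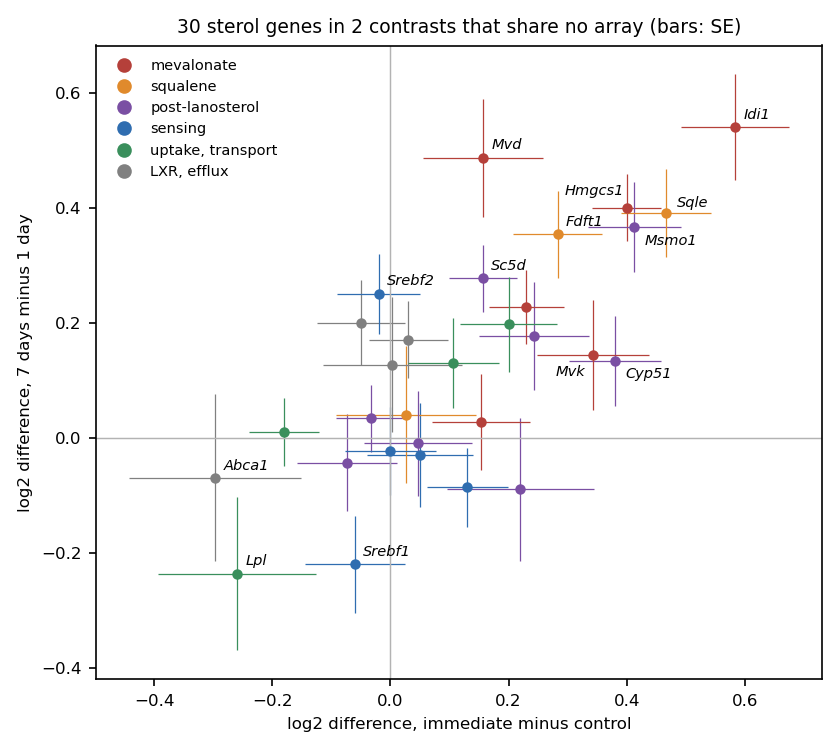
Log2 difference between 7 days and 1 day (vertical) against that between the immediate group and control (horizontal) for the 30 sterol genes, 1 point per gene with its SE in both directions, coloured by role. Synthesis genes run from near 0 to the upper right, where Idi1 lies at 0.58 and 0.54. Srebf2 stands apart at -0.02 and 0.25 in the probe set used, whereas its second set, not drawn, gave 0.41 and 0.30.

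Neighbouring lipid genes were tested in the same fit. In a list of 33 other genes of sterol handling, 27 were measured and tested. Against control 0 were called at any time, where the largest share of all genes called in 1 direction was 1.66%. Between consecutive times Rnf139 rose by 1 day, and Erg28 and Nfya rose and Ch25h fell by 7 days. Over all genes tested 4.02% rose by 1 day, and 5.13% rose and 4.22% fell by 7 days. The counts of this list lie near these shares. With sex as a term neither Rnf139 (adjusted p = 0.135) nor Erg28 (0.219) passed. Nfya encodes a subunit of the CCAAT-binding factor NF-Y, and it rose by 0.68 ± 0.16 from 1 to 7 days (adjusted p = 0.0173; 0.0881 with sex as a term). Ch25h, which makes an oxysterol in activated macrophages, fell by 0.87 over that interval (adjusted p = 0.0291; 0.163 with sex as a term). The mean at 1 day was 6.01 for Ch25h, 6.43 for Nfya and 6.19 for Pnpla3. All of these lie under the highest male value of Xist (6.48), so sizes of their changes are uncertain.

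Of 19 genes of fatty acid synthesis, all measured, 0 were called immediately after noise, with a median of -0.02. Over all genes tested 0.579% rose and 0.352% fell there. By 1 day 4 of the 19 fell from the immediate group (Elovl1, Elovl6, Mid1ip1 and Pnpla3) and Scd1 rose, beside 4.38% and 4.02% of all genes. Of these, Mid1ip1 (adjusted p = 0.0686) and Scd1 (0.101) did not pass with sex as a term. Elovl6, which lengthens saturated fatty acids, fell by 0.68 (SE 0.09, adjusted p = 0.000572) and rose again by 0.57 ± 0.09 by 7 days (adjusted p = 0.00200). Pnpla3, a lipid droplet protein under SREBP control, fell by 0.55 and rose by 0.70 ± 0.09 over the same intervals, and it also fell against control at 1 day by 0.38 (adjusted p = 0.0341; 0.123 with sex as a term). Mid1ip1 rose by 0.30 by 7 days. Over all genes tested 5.13% rose from 1 to 7 days, and 1.66% fell at 1 day against control.

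The other 15 sterol genes were called in none of the 7 comparisons without a sex term. They are the synthesis genes Pmvk, Lss, Tm7sf2, Nsdhl, Hsd17b7 and Ebp, the sensing genes Scap, Insig1 and Insig2, Lpl and Npc2 in uptake and transport, and Nr1h3, Abca1, Abcg1 and Apoe, which make up the whole LXR and efflux role. Their range over the 15 arrays ran from 0.18 log2 units in Nsdhl to 0.74 in Lpl. Hsd17b7, a reductase after lanosterol, owed much of its immediate difference to replicate 3, at 8.58 beside 8.16 and 8.15 in the other immediate arrays. Pmvk, phosphomevalonate kinase, lay at 8.26, 8.48 and 8.26 immediately after noise and at 8.22, 8.10 and 8.22 in controls. The LXR gene Nr1h3 lay between 5.99 and 6.33 in controls and between 6.25 and 6.51 at 14 days, a difference of 0.26 ± 0.12 that did not pass.

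The brightest probe set of a gene was used for each value above, and the annotation gives 34 further sets in 19 of the 30 genes. Of these, 30 lay above the filter level, and the sign of their difference was that of the set used in 24 of 30 immediately after noise and in 27 of 30 both from there to 1 day and from 1 to 7 days. The signs matched less often against control at 1 day (20 of 30), 7 days (21) and 14 days (17), and from 7 to 14 days (21). The 3 other bright sets of Hmgcs1 differed by 0.35, 0.42 and 0.47 from control immediately after noise, beside 0.40 for the set used. For Cyp51 a dimmer set gave 0.69 ± 0.16 and a still dimmer one -0.07 ± 0.11. The 2 genes nearest background, Mvd (mean 6.14) and Nr1h3 (mean 6.25), lay in the range that Xist reached in males.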

How the data were processed

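RNA of 15 mice was measured on 1-colour arrays. The deposited values are log2 intensities from 2.06 to 14.63, and tools named in the submitters' processing notes, with no versions, are MAS5, RMA and Affymetrix Expression Console. Which one gave these values is not stated there. The median of an array lay within 5.87 to 5.92, so no further normalization was applied. Of 45101 probe sets, 34945 were paired with 1 gene, 932 with several and 9160 with none. Genes in the lowest 25% of mean intensity (at or below 4.70) were left out. A linear model of the 5 group means was fitted in R 4.3.3 by limma 3.58.1, using lmFit and trended eBayes, on the 15 arrays together (10 residual degrees of freedom). Two-sided tests in 7 contrasts were adjusted by Benjamini-Hochberg over 13644 genes, and the functions were tested on simulated data. Their number, 3 arrays per group, limits the precision. The sterol genes, lists and tests were chosen with earlier results of these data known. Values in every array are given for genes called in a contrast or by the F test and for Insig1, Abca1 and Apoe; other genes named alone were chosen after their values were seen. Promoter windows were to be shown for called genes that hold the sterol element core, and 3 without it were added. Replicate numbers were not taken to pair the animals. Alternatives were sex as a term, female arrays alone, other filters, probe set means, eBayes without trend, array weights, a replicate block, 2 groups only, quantile normalization and each array left out. The fit over single probe sets was chosen after seeing the data.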

Additional observations from a re-analysis of the deposited data

Results flagged for a closer look

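The difference from control was not the same at consecutive times for 13 sterol genes between the immediate group and 1 day and for 9 between 1 and 7 days, by the direct contrast of the times (limma, adjusted p under 0.05). Against the immediate group, 10 synthesis genes were lower at 1 day. The log2 difference was -0.59 for Hmgcs1, -0.41 for Mvk, -0.50 for Mvd and -0.83 for Idi1 in the mevalonate steps. It was -0.59 for Fdft1 and -0.58 for Sqle in the squalene steps. After lanosterol it was -0.37 for Cyp51, -0.65 for Msmo1, -0.29 for Sc5d and -0.41 for Dhcr7. Srebf1 differed by 0.31, Npc1 by -0.29 and Stard4 by -0.53. Between 1 and 7 days the synthesis genes differed by 0.40 (Hmgcs1), 0.49 (Mvd), 0.54 (Idi1), 0.23 (Fdps), 0.35 (Fdft1), 0.39 (Sqle), 0.37 (Msmo1) and 0.28 (Sc5d), and Srebf2 by 0.25. Mice at 1 day were all male, and the values with sex as a term stand beside the results above.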

How the results depend on the processing

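The 29 changes of sterol genes called in a contrast were recomputed under 24 to 26 alternatives each, 728 values in all. Female arrays alone could not be used for contrasts with 1 day, and Mvd did not pass the filter of the lowest 50%. The direction was that of the value given above in all 728, and 619 were called. Many alternatives leave the difference itself unchanged and alter only its test. These are other filters, no trend, 2 groups only, the replicate block, single probe sets and arrays left out of groups not compared. The direction could not turn in them, so the 728 values are not separate checks of it. Immediately after noise 5 genes were called; female arrays alone gave 0, though with differences of 0.36 to 0.57 for these 5, and array weights gave 9. With an array left out the count ran from 1 to 5. For 1 day against control, where 2 were called, no filter gave 1 and the mean over probe sets gave 1 that was neither of the 2 (Mvd), while sex as a term, no trend, only the 2 groups compared and, for the brightest set of each gene, each probe set by itself gave 0, and arrays left out gave 0 to 2. From the immediate group to 1 day, arrays left out gave 9 to 14. For 7 days against 1 day, only the 2 groups compared gave 4, the mean over probe sets 5 rises and 1 fall, and arrays left out 4 to 9. The F test gave 6 with sex as a term and 6 to 11 with an array left out. For 7 and 14 days against control and for 14 against 7 days arrays left out gave 0 to 0. The replicate number as a block gave 5 immediately after noise and changed no count by over 1.5 times. In their deviations from the group means, same-numbered arrays correlated from -0.331 to 0.303 (median 0.056 over 30 pairs). Arrays of different number correlated from -0.492 to 0.372 (median -0.03 over 60 pairs), so these values neither show nor exclude a pairing by number. The causes of these changes were not tested. Signal near background limits dim genes such as Mvd.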
